A study of Arabidopsis thaliana with 9 samples.

Results

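The transcripts described here are those of the chloroplast and mitochondrial genomes of Arabidopsis thaliana, as read by the array's own run of consecutively numbered probe sets for the 2 organelles. The run holds 126 of the 22746 non-control probe sets, and it was chosen by identifier number, with no use of signal. The platform annotation lists plastid genes for 73 of them, mitochondrial genes for 12 and genes of nuclear chromosome 2 for 5, while 36 have no single listed gene. The samples were germinating seeds of wild-type Col-0 and of the transgenic lines ARF10 and mARF10, with 3 arrays for every genotype. The ARF10 transgene joined 2.3 kb of AUXIN RESPONSE FACTOR10 coding sequence to GFP behind 3 kb of the gene's upstream region. In mARF10 the same construct carried 4 mutations where microRNA160 pairs with the transcript. That upstream region drives both transgenes, and how many insertion lines each genotype stands for is not given in the labels. Each sample held 3 seed lots, kept wet on filter paper, 3 days in the dark at 4 °C followed by 22 h in light at 22 °C.

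Chloroplasts and mitochondria keep small genomes that code for part of their photosynthetic and respiratory complexes and for part of the machinery that expresses them, while the nucleus codes for the rest of the subunits. Most plastid genes for photosynthesis are transcribed by a bacterial-type RNA polymerase whose core subunits the plastid itself encodes, and a phage-type polymerase from the nucleus transcribes genes such as accD and the rpoB operon. Many plastid genes lie in operons and share a primary transcript, so their probe sets are not independent. During germination the seed's undifferentiated plastids turn into chloroplasts, and respiration resumes before photosynthesis does. The submitters amplified the RNA with a kit that primes from poly(A) tails, and in both organelles such tails are mostly short-lived marks on RNA that is being degraded. How far that priming sets the signals below was not tested.

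The 73 plastid probe sets stand for 72 genes: 5 probe sets for photosystem I, 13 for photosystem II, 6 for the cytochrome b6f complex, 6 for the plastid ATP synthase, 11 for the NDH complex, 1 for rubisco, 4 for the RNA polymerase, 19 for the ribosome and 8 for other proteins. Of these, 8 probe sets are listed for both copies of a gene. Those of rpl2, rpl23, rps7, ndhB, ycf1 and ycf2 read the copies in the inverted repeat together. The others are a pair of probe sets for rps12, and which part of that gene each of them reads was not determined. The 12 mitochondrial probe sets stand for 12 of the 33 protein-coding genes of the mitochondrial genome: 5 for complex I, 1 for complex IV, 4 for cytochrome c maturation and 2 others. Values are the authors' deposited log2 signals, whose base was inferred. Signals of different probe sets depend on their probes and were not ranked against each other. The mean over the 9 arrays reached a log2 signal of 5.72, the 30th percentile of all probe sets and the minimum for a test, for 62 of the 73 plastid, 8 of the 12 mitochondrial, 3 of the 5 chromosome 2 and 12 of the 36 unnamed members. That left 85 members in the tests and 41 out of them. In whole-seed RNA, fewer cells of a type, fewer organelle genomes per cell and less RNA per genome cannot be told apart.

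Col-0 replicate 2 stood apart from the other arrays in these transcripts. This was not particular to them, as it was often the lowest or highest array over all probe sets too. In a principal component analysis of the 126 members, the 1st component held 46.3% of the variance, with Col-0 replicate 2 at 3.35, mARF10 replicate 2 at 1.31 and the other 7 arrays between -1.67 and -0.08. The 42 members for photosynthetic complexes and rubisco lay on average 0.26 below their own 9-array means on that array (log2 signal), while the other 8 arrays lay between -0.07 and 0.16. Its shortfall was 0.49 for the cytochrome b6f members and 0.28 for the members of either photosystem. The 19 ribosomal members lay 0.08 above their means on it, a value inside the range of the other 8 arrays, -0.13 to 0.11. The 11 NDH members, part of the 42, had a mean deviation of -0.12, also inside the range of the other 8, -0.20 to 0.16. Some groups outside the 42 had their lowest mean deviation on Col-0 replicate 2 too. It was -0.15 for the 12 mitochondrial members and -0.20 for the 8 other plastid members. The plastid RNA polymerase members were at -0.05 on it, inside the range of the other 8 arrays, -0.12 to 0.13. Col-0 replicate 2 was the lowest of the 9 arrays for 17 of the 42 photosynthetic members (40.5%) and the highest for 0 of them, where over all 22746 probe sets it was the lowest for 20.7% and the highest for 22.0%. Without that array the sign of the difference turned for 20 of the 73 plastid members in mARF10 minus Col-0 and for 18 in ARF10 minus Col-0. Where leaving it out turned the sign of a difference printed below or moved it widely, both values are given.

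**Figure D1:**
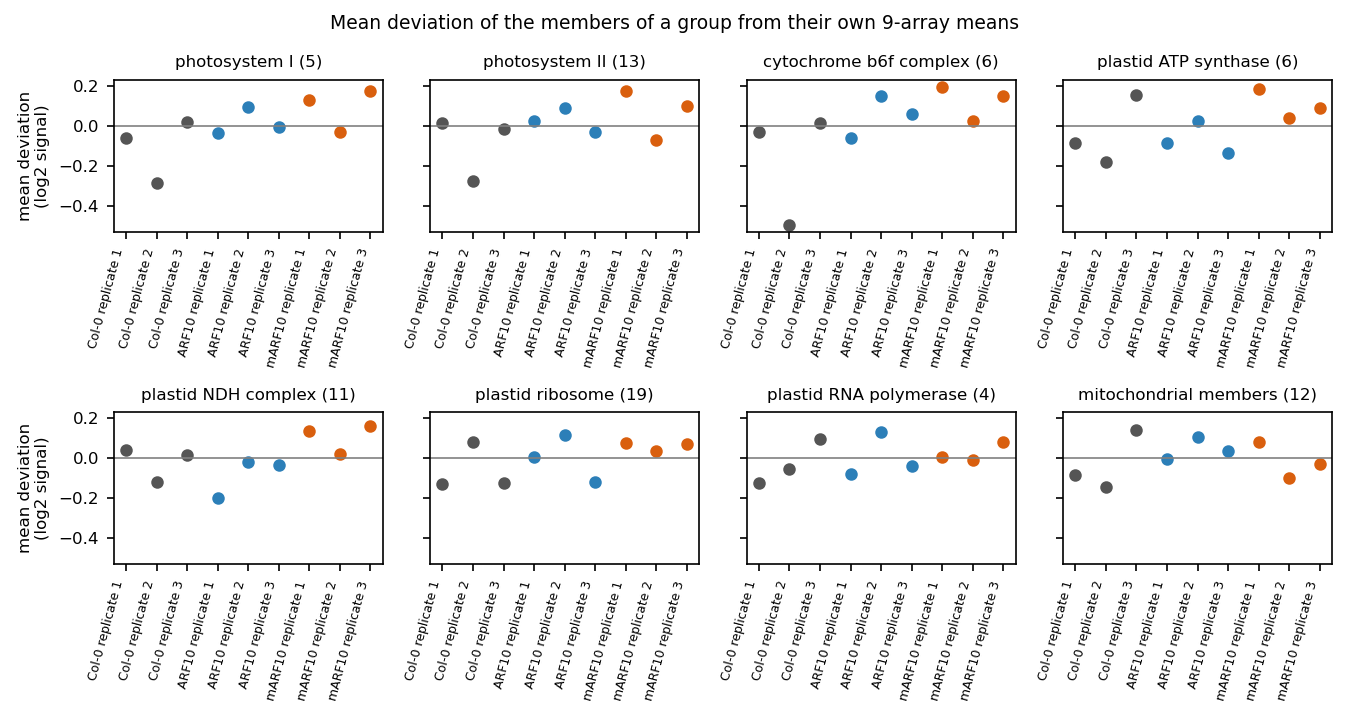
Each point is 1 array, coloured by genotype (grey Col-0, blue ARF10, orange mARF10), and the vertical axis is the mean, over the members of a group, of the difference from each member's own 9-array mean, in log2 signal. Numbers in brackets are probe sets. Col-0 replicate 2 is the lowest point for both photosystems (-0.28) and for the cytochrome b6f complex (-0.49), but not for the ribosome (0.08). It is also the lowest for the ATP synthase (-0.18) and the mitochondrial members (-0.15), but not for the NDH complex (-0.12) or the RNA polymerase (-0.05).

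The loss on Col-0 replicate 2 differed from gene to gene. The signal of petB, which encodes cytochrome b6, was 10.48, 9.04 and 10.38 in Col-0, 10.59, 10.34 and 10.19 in ARF10, and 10.61, 9.64 and 10.37 in mARF10. The signal of psbC, for the CP43 antenna of photosystem II, was 9.56, 8.82 and 9.89 in Col-0, 9.77, 9.84 and 9.77 in ARF10, and 10.03, 8.89 and 9.94 in mARF10. In both genes the second arrays of Col-0 and mARF10 were the lowest of the 9 and the remaining 7 lay close together. That pair was lowest for 9 of the 42 photosynthetic members (21.4%), where the share over all probe sets was 8.21%. The mean deviation of the 42 on mARF10 replicate 2 was -0.02. The 7 arrays outside that pair lay between -0.07 and 0.16. The signal of rbcL, for the large subunit of rubisco, had the same pair lowest, at 7.20 on Col-0 replicate 2 and 7.53 on mARF10 replicate 2 against 7.92 to 8.27 elsewhere. The signal of rpl32, a protein of the large ribosomal subunit, ran the other way, with 11.29 on Col-0 replicate 2 and 11.30 on mARF10 replicate 2 against 10.16 to 10.88 on the other 7 arrays. The ribosomal genes rps3, rpl14 and rpl22 also had their highest signal on Col-0 replicate 2, at 12.46, 10.28 and 12.03. The 5 nuclear genes of photosynthetic complexes that the annotation names averaged 9.06 on Col-0 replicate 2 and 9.87 to 10.33 on the other 8 arrays, with 9.87 on mARF10 replicate 2. Their part in the plastid values was not tested.

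**Figure D2:**
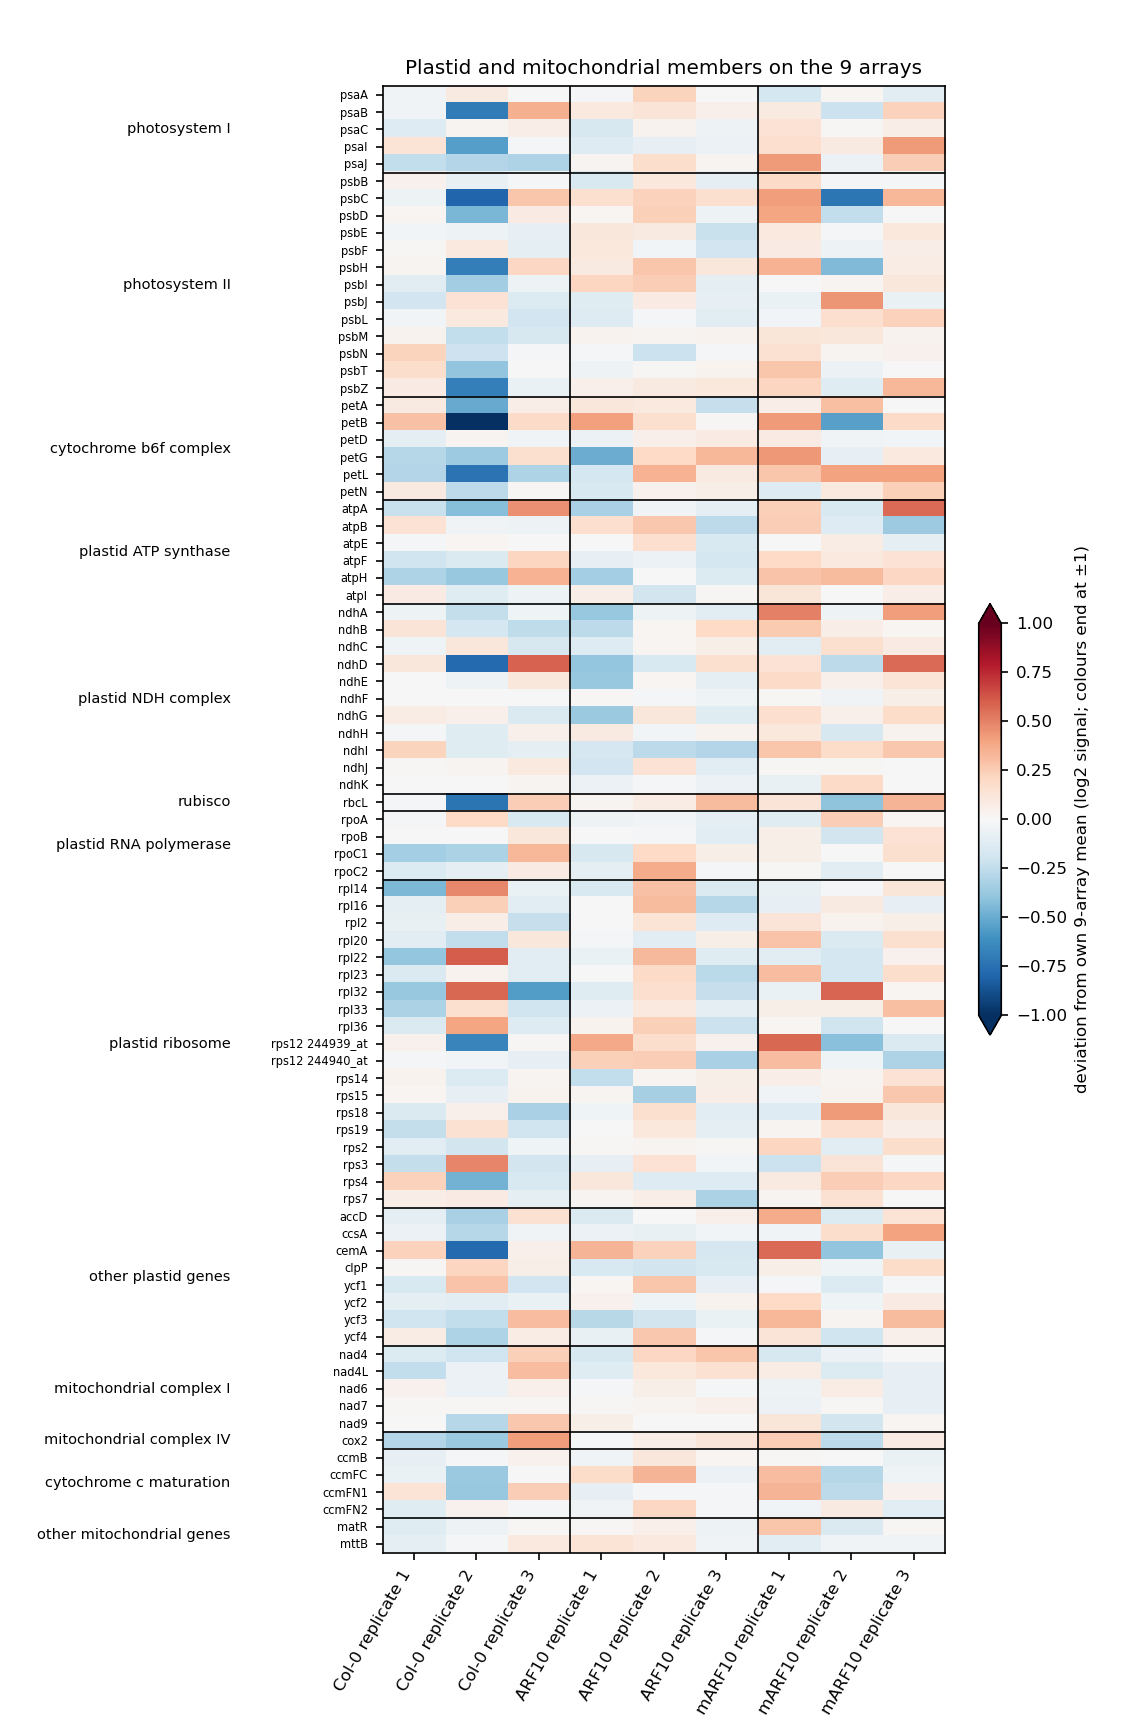
Each row is 1 plastid or mitochondrial probe set, each column 1 array, and the colour is the difference from the row's own 9-array mean in log2 signal, with blue below and red above. The column of Col-0 replicate 2 holds the darkest blue cells, among them petB, psbC, ndhD and rbcL, beside red cells for rpl22, rpl32, rpl14 and rps3.

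None of the 85 tested members passed an adjusted p of 0.05 in any of the 3 comparisons of genotypes (limma, Benjamini-Hochberg over all 15922 tested probe sets). Over all tested probe sets, 0.408% passed for mARF10 minus ARF10 and 0% for either comparison with Col-0. At an unadjusted p under 0.05 there were 5, 6 and 6 members among the 85, where 10.9%, 10.7% and 4.64% of all tested probe sets lay under it. The arrays of the 2 genotypes did not overlap for 7 tested members in mARF10 minus ARF10, for 6 in mARF10 minus Col-0 and for 7 in ARF10 minus Col-0. These are 8.24%, 7.06% and 8.24% of the members, where all tested probe sets gave 22.3%, 12.4% and 9.2%. The 7 in mARF10 minus ARF10 were all higher in mARF10, where the background was 9.58% higher and 12.7% lower. The 6 in mARF10 minus Col-0 were all higher in mARF10, where the background was 5.26% higher and 7.12% lower. In ARF10 minus Col-0, 4 were higher in ARF10 and 3 lower, where the background was 5.59% higher and 3.61% lower.

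In mARF10 minus ARF10, 51 of the 73 plastid members had a positive difference and their median was 0.08 on the log2 scale, while 2 of the 12 mitochondrial members were positive, with a median of -0.06. Over all 22746 probe sets 41.3% were positive and the median was -0.02. In mARF10 minus Col-0, 62 plastid members were positive (median 0.16) and 5 mitochondrial ones (median -0.01), against 45% of all probe sets (median -0.01). Without Col-0 replicate 2 the plastid values of that comparison were 56 members and 0.09, and the mitochondrial ones 4 members and -0.05. The lowest plastid count with 1 array left out, 53 (median 0.10), came without mARF10 replicate 1. With each array left out in turn the mitochondrial count ran from 2 to 9 of 12 and its median from -0.05 to 0.10, both highest without Col-0 replicate 3. In ARF10 minus Col-0, 46 plastid members (median 0.05) and 10 mitochondrial members (median 0.05) were positive, against 52.2% of all probe sets (median 0.01), and without Col-0 replicate 2 these were 40 plastid members (0.02) and 8 mitochondrial members (0.04). The comparisons share their groups, and the members of an operon share transcripts, so these counts are descriptions without a test.

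**Figure D3:**
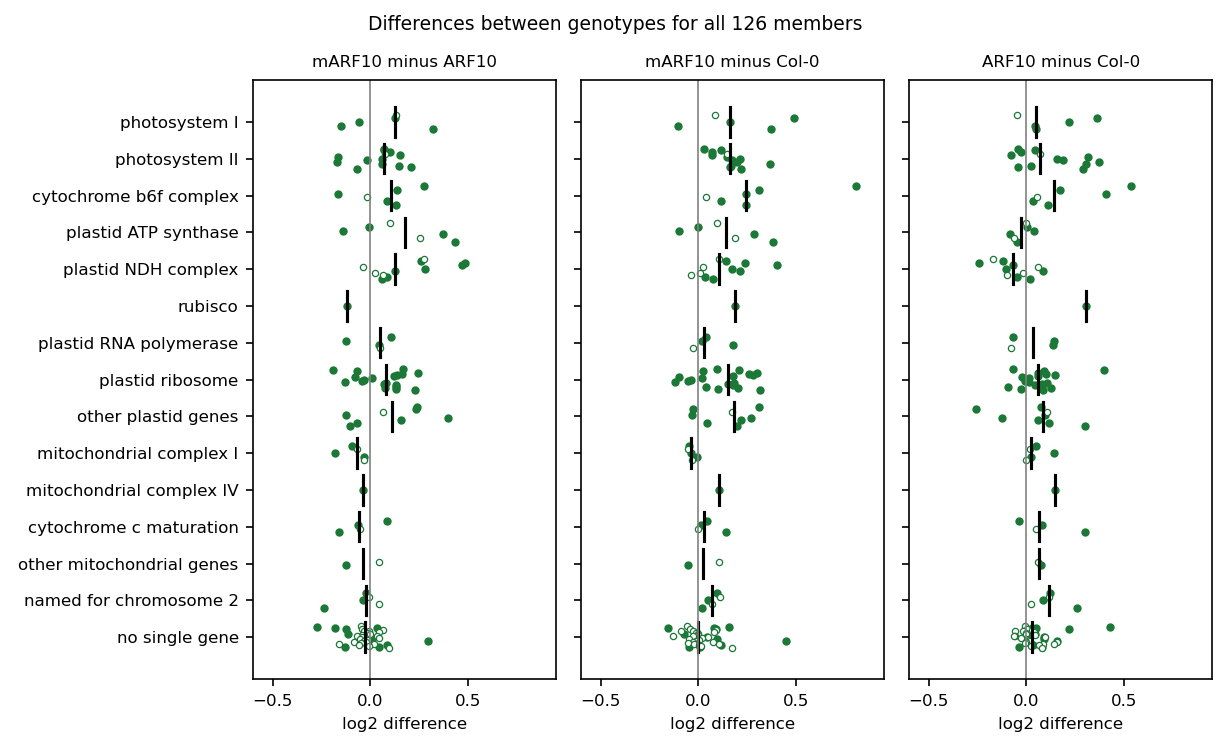
Each point is 1 of the 126 members, placed by its log2 difference between genotype means (horizontal axis) and grouped by complex or annotation (vertical axis). Filled points were tested, open points lay under the minimum signal, and black bars are medians. Most plastid groups sit to the right of 0 in mARF10 minus ARF10, with ndhI and ndhA at 0.48 and 0.47, and petL stands farthest out in mARF10 minus Col-0 at 0.81.

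The NDH complex, which returns electrons from photosystem I to the plastoquinone pool in cyclic electron flow, held the pair of members with the smallest p-values in mARF10 minus ARF10. The signal of ndhI, an iron-sulfur subunit, was 9.77, 9.43 and 9.45 in Col-0, 9.38, 9.28 and 9.26 in ARF10, and 9.82, 9.73 and 9.82 in mARF10. The mARF10 arrays all lay above the ARF10 arrays, and the first Col-0 array fell within the mARF10 range. The difference of mARF10 minus ARF10 was 0.48 on the log2 scale (SE 0.10, 95% interval 0.26 to 0.70), with an adjusted p of 0.0937 that missed the threshold. That p depended on arrays outside the comparison, since they share its error estimate. It was 0.0162 with Col-0 replicate 1 left out, 0.0334 with the second Col-0 array left out and 0.0102 from the ARF10 and mARF10 arrays alone, with the same difference, and these settings raised the count over all probe sets from 65 to 173, 268 and 397. With any other array left out it lay between 0.125 and 0.379, and the count over all probe sets between 1 and 51. ARF10 minus Col-0 for ndhI was -0.24 (SE 0.10, adjusted p = 0.892) with no overlap of the arrays, and mARF10 minus Col-0 was 0.24 (SE 0.10, adjusted p = 0.455). With the second Col-0 array left out, ARF10 minus Col-0 was -0.31.

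The signal of ndhA, a membrane subunit of the same complex, was 7.54, 7.35 and 7.55 in Col-0, 7.21, 7.54 and 7.48 in ARF10, and 8.09, 7.54 and 8.01 in mARF10. The first and the third mARF10 arrays lay above all others, and the second equalled the highest ARF10 array. The difference of mARF10 minus ARF10 was 0.47 (SE 0.15, limma adjusted p = 0.289). With the second arrays of Col-0 and mARF10 left out, a setting chosen after the data were seen, it was 0.64 (adjusted p = 0.0343). That setting drops the lowest mARF10 array, and it raised the count over all probe sets from 65 to 167. With 1 array left out in turn the adjusted p of ndhA lay between 0.111 and 0.627. With array weights it was 0.024, where the count was 784. Of the 11 NDH members, 10 had a positive difference in mARF10 minus ARF10 (median 0.13) and 3 in ARF10 minus Col-0 (median -0.07). With each array left out in turn these medians ran from 0.07 to 0.23 and from -0.09 to -7.8e-05. The ends nearest 0 came without ARF10 replicate 1 (9 and 5 positive), and the highest in mARF10 minus ARF10 without ARF10 replicate 3. The exception in mARF10 minus ARF10 was ndhH, at -0.04, which lay under the minimum signal. The ndhD signal had the widest spread of the complex, with 7.52, 6.62 and 7.99 in Col-0, 7.01, 7.25 and 7.56 in ARF10, and 7.54, 7.14 and 7.97 in mARF10, and its genotypes overlapped. The adjusted p-values of ndhB, ndhC, ndhD, ndhG and ndhK ran from 0.468 to 0.874 in mARF10 minus ARF10, and ndhE, ndhF, ndhH and ndhJ were not tested.

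In the cytochrome b6f complex, which links the photosystems, petL had the smallest p of mARF10 minus Col-0 among the members. Its product is a small subunit that stabilises the complex. Its signal was 6.60, 6.16 and 6.59 in Col-0, 6.72, 7.25 and 6.99 in ARF10, and 7.18, 7.30 and 7.30 in mARF10. The Col-0 arrays lay below all other arrays, while ARF10 and mARF10 overlapped. The difference of mARF10 minus Col-0 was 0.81 (SE 0.15, 95% interval 0.46 to 1.15) with an adjusted p of 0.246, and that of ARF10 minus Col-0 was 0.53 (SE 0.15, adjusted p = 0.892). These petL differences were 0.66 and 0.39 without Col-0 replicate 2. All 6 members of the complex were positive in both of these comparisons, but without that array 5 were positive in mARF10 minus Col-0 (median 0.06) and 3 in ARF10 minus Col-0 (median 0.01). The differences of petA (cytochrome f) and petB from Col-0 were 0.24 each in mARF10, with adjusted p-values of 0.589 and 0.81, but without Col-0 replicate 2 they were 0.05 and -0.22. For petG and petN, small subunits, they were 0.31 and 0.12, or 0.21 and 0.01 without that array, and petD, for subunit IV, was not tested.

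In photosystem I, the small subunit psaJ had the next smallest p of mARF10 minus Col-0. Its signal was 9.87, 9.83 and 9.82 in Col-0, 10.15, 10.30 and 10.15 in ARF10, and 10.55, 10.06 and 10.37 in mARF10. The Col-0 arrays lay within 0.1 of each other and below the other 6. The difference was 0.49 for mARF10 minus Col-0 (SE 0.11, adjusted p = 0.321) and 0.36 for ARF10 minus Col-0 (SE 0.11, adjusted p = 0.892), and without Col-0 replicate 2 these were 0.48 and 0.35. The small subunit gene psaI had 7.90, 7.21 and 7.75 in Col-0, 7.63, 7.68 and 7.70 in ARF10, and 7.93, 7.85 and 8.19 in mARF10. For psaI the mARF10 arrays lay above the ARF10 arrays, by 0.32 on average (SE 0.16, adjusted p = 0.514). The reaction centre genes psaA and psaB, which carry the core pigments, differed by -0.15 and -0.06 in mARF10 minus ARF10, with adjusted p-values of 0.576 and 0.954, and psaC, an iron-sulfur protein, was not tested.

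**Figure D4:**
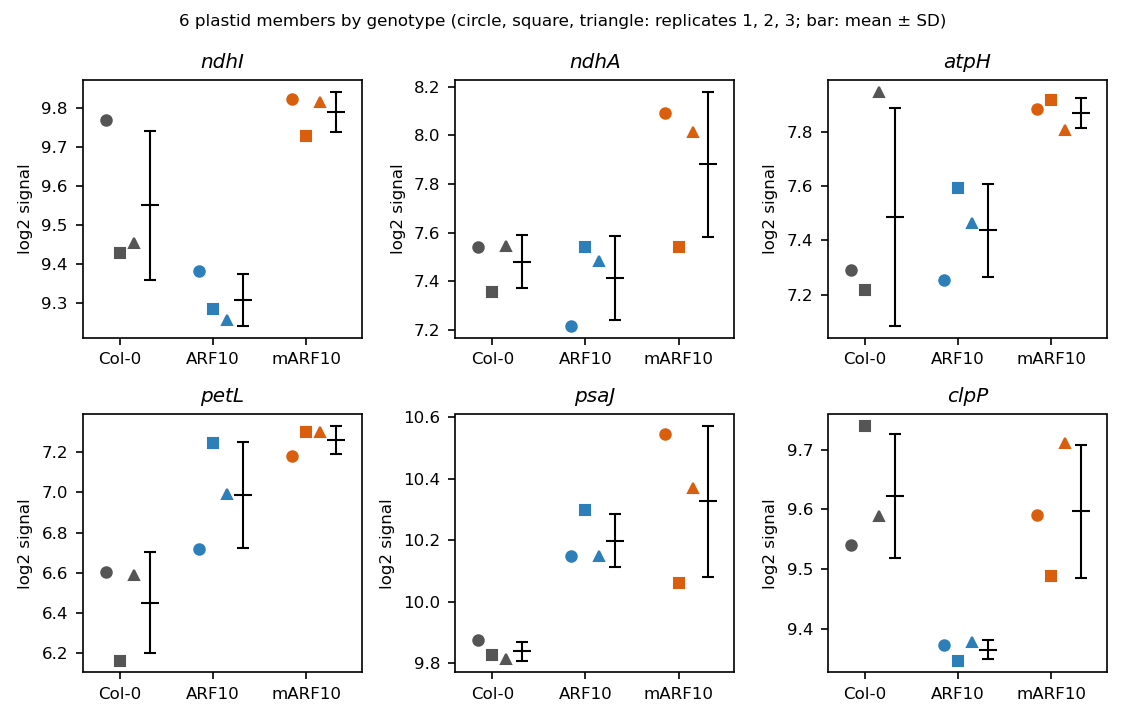
Points are single arrays (circle, square and triangle for replicates 1, 2 and 3), the vertical axis is the log2 signal, with a different range in each panel, and bars are the mean ± SD of 3 arrays. For ndhI, atpH and clpP the mARF10 arrays lie above all ARF10 arrays, and for petL and psaJ the Col-0 arrays lie below the other 6, although none of the 6 genes passed the threshold.

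Photosystem II, the complex that splits water, had positive differences for all 13 members in mARF10 minus Col-0, with a median of 0.16 and a range of 0.03 to 0.36. Without Col-0 replicate 2 the count was 9 of 13 and the median 0.07, and without mARF10 replicate 1 they were 9 of 13 and 0.04. In mARF10 minus ARF10 the count was also 9 of 13. The signal of psbM, a small subunit, was 12.35, 12.07 and 12.16 in Col-0, 12.35, 12.35 and 12.35 in ARF10, and 12.44, 12.43 and 12.35 in mARF10. The mARF10 arrays lay above the Col-0 arrays, with the closest pair equal at this rounding, and the difference was 0.21 (SE 0.08, adjusted p = 0.428) with Col-0 replicate 2 and 0.15 without it. The psbI signal, another small subunit, was 11.51, 11.27 and 11.57 in Col-0, 11.83, 11.87 and 11.53 in ARF10, and 11.63, 11.65 and 11.74 in mARF10. Its difference in ARF10 minus Col-0 was 0.29 (SE 0.11, adjusted p = 0.892), or 0.20 without Col-0 replicate 2, and the third ARF10 array overlapped with Col-0. The cytochrome b559 genes psbE and psbF differed by 0.07 each in mARF10 minus ARF10. The genes of the D2 reaction centre protein (psbD), the CP43 antenna (psbC) and the phosphoprotein psbH had differences of -0.02, -0.17 and -0.17, with the second mARF10 array lowest in that genotype for all 3.

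The ATP synthase of the plastid uses the proton gradient across the thylakoid membrane. The signal of atpH, for the subunit of the proton-driven ring, was 7.29, 7.22 and 7.95 in Col-0, 7.25, 7.59 and 7.46 in ARF10, and 7.88, 7.92 and 7.81 in mARF10. The mARF10 arrays lay above all ARF10 arrays, and the third Col-0 array lay above all mARF10 arrays. The difference of mARF10 minus ARF10 was 0.43 (SE 0.18, adjusted p = 0.423). For atpA, the alpha subunit, that difference was 0.37 (adjusted p = 0.616). For atpB and atpE, the beta and epsilon subunits, it was -0.14 and -0.01, with adjusted p-values of 0.821 and 0.985. The probe sets of atpF and atpI, both membrane subunits, were not tested. The rbcL difference was -0.12 in mARF10 minus ARF10 (adjusted p = 0.908) and 0.19 in mARF10 minus Col-0 (adjusted p = 0.785), which turned to -0.10 without Col-0 replicate 2.

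Among genes of the expression machinery, 0 of the 3 tested RNA polymerase members and 0 of 19 ribosomal members reached an unadjusted p under 0.05 in any comparison. The rpoA signal, the alpha subunit of the plastid's own polymerase, lay between 12.63 and 13.03 on the 9 arrays, and its differences were 0.11 for mARF10 minus ARF10, 0.04 for mARF10 minus Col-0 and -0.07 for ARF10 minus Col-0. The last pair were 0.13 and 0.02 without Col-0 replicate 2. For rpoC1 and rpoC2, beta subunits of that enzyme, the differences of mARF10 minus ARF10 were 0.04 and -0.12, and rpoB was not tested. Of the 19 ribosomal members, all of them tested, 13 were positive in mARF10 minus ARF10 (median 0.08), 15 in mARF10 minus Col-0 (median 0.15) and 13 in ARF10 minus Col-0 (median 0.06). Without Col-0 replicate 2, on which several of these genes were high, 18 were positive in mARF10 minus Col-0 (median 0.16) and 14 in ARF10 minus Col-0 (median 0.15). The rpl32 gene, described above, had a difference of 0.24 in mARF10 minus ARF10 (adjusted p = 0.812). The rps12 gene is trans-spliced, and its pair of probe sets differed: that of 244939_at was 0.40 in ARF10 minus Col-0 (0.17 without Col-0 replicate 2) and that of 244940_at 0.09.

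Of the 8 other plastid members, clpP encodes the plastid's own subunit of the Clp protease. Its signal was 9.54, 9.74 and 9.59 in Col-0, 9.37, 9.35 and 9.38 in ARF10, and 9.59, 9.49 and 9.71 in mARF10. The ARF10 arrays were the 3 lowest and lay within 0.1 of each other, while Col-0 and mARF10 overlapped. The difference was 0.23 for mARF10 minus ARF10 (SE 0.08, adjusted p = 0.339) and -0.26 for ARF10 minus Col-0 (SE 0.08, adjusted p = 0.892), which was -0.20 without Col-0 replicate 2. The signal of ycf3, an assembly factor of photosystem I, was 6.45, 6.40 and 6.95 in Col-0, 6.37, 6.47 and 6.58 in ARF10, and 6.98, 6.67 and 6.96 in mARF10. For ycf3 the mARF10 arrays lay above the ARF10 arrays by 0.40 on average (SE 0.15, adjusted p = 0.382). The ccsA signal, for a protein of cytochrome c synthesis in the plastid, was 9.61, 9.38 and 9.64 in Col-0, 9.61, 9.59 and 9.64 in ARF10, and 9.64, 9.85 and 10.07 in mARF10. Its difference in mARF10 minus Col-0 was 0.31 (SE 0.11, adjusted p = 0.422), or 0.23 without Col-0 replicate 2, with the first mARF10 array near the third Col-0 array. The accD gene, for a subunit of the acetyl-CoA carboxylase of fatty acid synthesis, differed by 0.16 in mARF10 minus ARF10 (adjusted p = 0.763). For ycf4, another assembly factor of photosystem I, and cemA, an envelope protein, the differences were -0.07 and -0.10, and for ycf1, a large reading frame proposed to act in protein import, -0.13.

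Along the plastid genome, adjacent genes were more alike from array to array than other pairs, with many exceptions. Over the 65 plastid genes with 1 copy, the median Pearson correlation across the 9 arrays was 0.51 for 60 adjacent pairs and 0.19 for 2020 other pairs. Without Col-0 replicate 2 the medians were 0.39 and 0.18. A correlation above 0.7 was found in 14 adjacent pairs (23.3%) and in 175 other pairs (8.66%). The 29 adjacent pairs of genes from different groups had a median of 0.33, with 10.3% above 0.7, and the 244 pairs of the same group that were not adjacent had 0.19, with 12.3% above 0.7. Of the 60 adjacent pairs, 9 had a correlation below 0. The closest neighbours were psbH with petB (0.93), atpF with atpH (0.91) and psbD with psbC (0.87). Some neighbours ran against each other, such as psaA with ycf3 (-0.61) and rps18 with rpl20 (-0.47). Neighbours within a complex could also have low correlations, as psaB with psaA (-0.28), petB with petD (-0.11) and atpH with atpI (0.13). The petD and atpI probe sets lay under the minimum signal for a test, so their values do not show that the transcripts parted. Probe sets under that minimum were kept in all counts of pairs. The part of shared transcripts in these correlations was not tested. The correlations describe 9 arrays that share their normalization and include the array that stood apart.

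**Figure D5:**
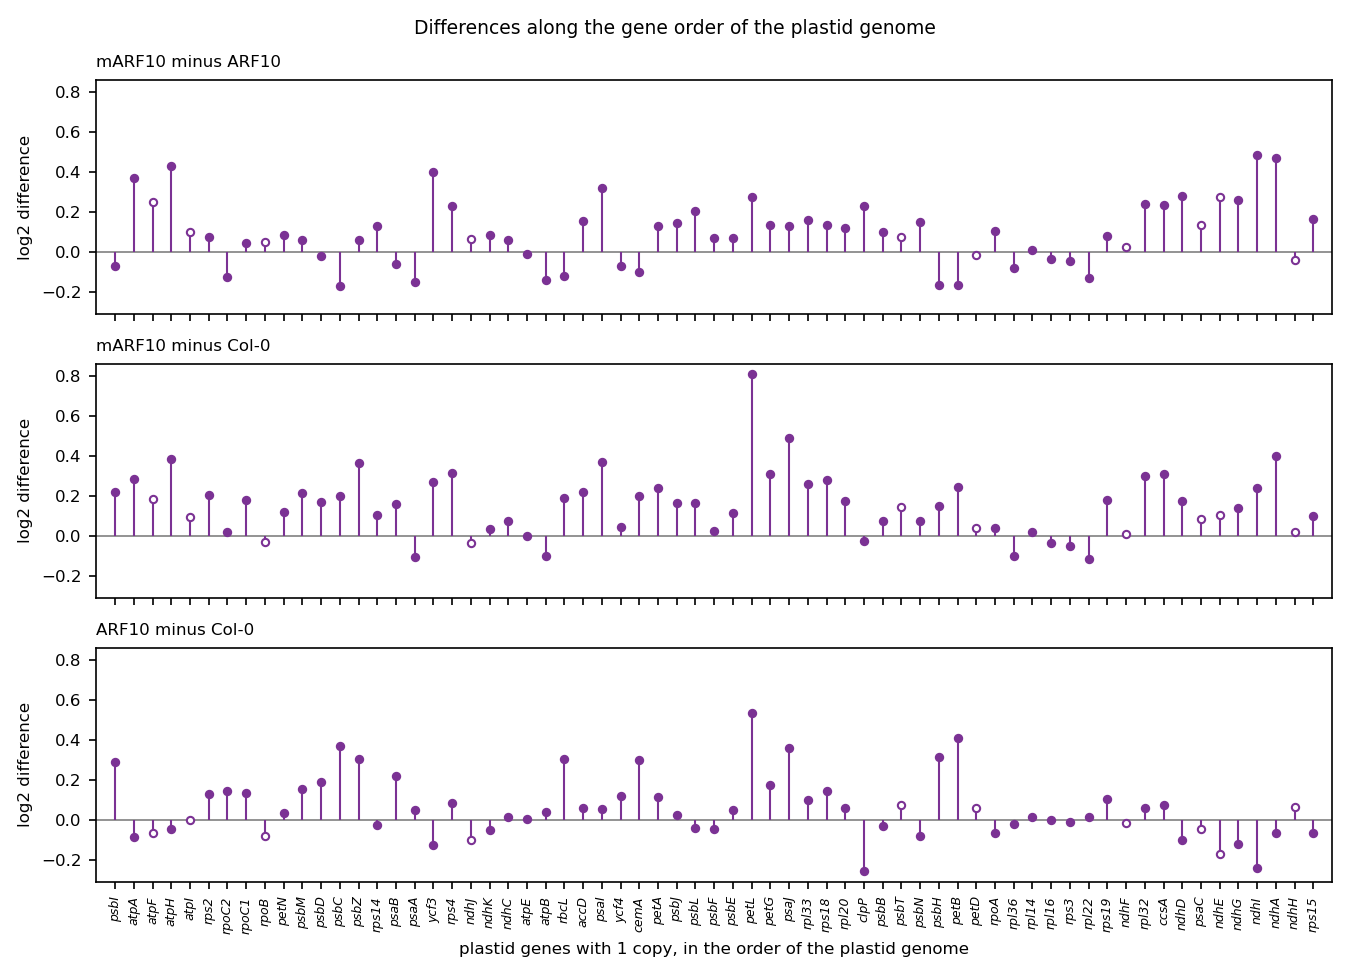
The horizontal axis lists the 65 plastid genes with 1 copy by their order in the genome and the vertical axis is the log2 difference between genotype means, with open points for genes that were not tested. In mARF10 minus ARF10, genes from atpA to atpI and from ccsA to ndhA form runs of positive differences, of which ndhI at 0.48 is the largest.

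The mitochondrial members cover respiratory and biogenesis functions, and none had an unadjusted p under 0.05. For complex I, which takes electrons from NADH, the nad4 signal was 7.72, 7.65 and 8.09 in Col-0, 7.69, 8.07 and 8.13 in ARF10, and 7.70, 7.80 and 7.86 in mARF10. The genotypes overlapped, and nad4 had a difference of -0.18 in mARF10 minus ARF10 (adjusted p = 0.705). For nad9 and nad4L that difference was -0.03 and -0.09, while nad6 and nad7 were not tested. The cox2 signal, for a copper-binding subunit of cytochrome c oxidase, was 5.89, 5.81 and 6.60 in Col-0, 6.17, 6.25 and 6.31 in ARF10, and 6.43, 5.92 and 6.27 in mARF10. Col-0 alone spanned the other 6 arrays for cox2, and its differences between genotypes were -0.04, 0.11 and 0.14. The differences of cox2 from Col-0, the last pair, were -0.04 and -0.000234 without Col-0 replicate 2.

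Among the genes of cytochrome c maturation, which attaches haem to the protein, the ccmFC signal was 8.28, 7.98 and 8.34 in Col-0, 8.53, 8.69 and 8.29 in ARF10, and 8.66, 8.06 and 8.30 in mARF10. Among the 12 members listed as mitochondrial, the largest difference was that of ccmFC in ARF10 minus Col-0, at 0.30 (SE 0.17, adjusted p = 0.892), and the genotypes overlapped. Without Col-0 replicate 2, the lowest array, that difference was 0.19. The ccmFN1 signal was 9.47, 8.95 and 9.57 in Col-0, 9.25, 9.31 and 9.31 in ARF10, and 9.67, 9.07 and 9.37 in mARF10, so the second arrays of Col-0 and mARF10 were the lowest here too. The ccmFN2 probe set differed by -0.07 in mARF10 minus ARF10, mttB, for a transporter of folded proteins, by -0.13, and ccmB and the intron maturase matR were not tested. Nuclear chromosome 2 carries a large copy of mitochondrial sequence, and 4 of the 12 mitochondrial probe sets (matR, mttB, ccmFC and nad6) are of the type that matches more than 1 gene, so transcripts of either genome could enter their signal.

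The 5 members listed under genes of chromosome 2 had differences from -0.24 to 0.04 in mARF10 minus ARF10 and from 0.02 to 0.26 in ARF10 minus Col-0, or 0.04 to 0.17 without Col-0 replicate 2. The extreme value in both cases was that of AT2G07708, with 5.85, 5.90 and 6.49 in Col-0, 6.21, 6.52 and 6.28 in ARF10, and 6.24, 5.95 and 6.11 in mARF10, where Col-0 overlapped with both other genotypes. Of the 36 members with no single gene, 12 were tested, and 244903_at had an unadjusted p of 0.049 in ARF10 minus Col-0. Its signal was 7.18, 6.74 and 7.49 in Col-0, 7.57, 7.40 and 7.72 in ARF10, and 7.43, 7.03 and 7.43 in mARF10, with a difference of 0.43 (SE 0.19, adjusted p = 0.892) that was 0.23 without Col-0 replicate 2. The widest spread of the 36 was that of 244944_s_at, listed for both rps3 and rpl16, with an SD of 0.32 over the 9 arrays. Its differences were 0.29 in mARF10 minus ARF10, 0.45 in mARF10 minus Col-0 and 0.16 in ARF10 minus Col-0. The last pair were 0.49 and 0.19 without Col-0 replicate 2. The median difference of the 36 was -0.03 in mARF10 minus ARF10.

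Nuclear genes of the same complexes were also compared. Of 20 genes listed for mitochondrial complexes II, III and IV and cytochrome c, the annotation names 15, all tested; 0 passed in any comparison (limma, adjusted p of 0.05), and their median differences were 0.00 in mARF10 minus ARF10, 0.05 in mARF10 minus Col-0 and 0.07 in ARF10 minus Col-0. The last pair were 0.01 and 0.02 without Col-0 replicate 2. Of 12 complex I genes 3 were named, with medians of 0.04, 0.08 and 0.11 in the same order and 0 passing, and without that array the medians against Col-0 turned to -0.01 each. Of 29 nuclear genes for photosynthetic complexes 5 were named and 0 passed. In mARF10 minus ARF10, 1 of the 5 was positive (median -0.10), where 30 of the 42 plastid-encoded photosynthetic members were positive (median 0.08). Over all probe sets 41.3% were positive. These sets are unlike, since the 42 include 11 NDH members, 10 of them positive, and the nuclear list holds no NDH genes. In ARF10 minus Col-0 all 5 were positive (median 0.39), among them PSAN at 0.61, a luminal subunit of photosystem I, and PSBW at 0.42, a small subunit of photosystem II, with Col-0 replicate 2 the lowest array in each, and without it 4 were positive, the median was 0.03, PSAN was at 0.00 and PSBW at 0.10. The mitochondrial polynucleotide phosphorylase AT5G14580, an enzyme that degrades RNA from its end, had 9.00, 9.74 and 9.32 in Col-0, 9.13, 9.13 and 9.22 in ARF10, and 9.05, 8.92 and 8.77 in mARF10, with a difference of -0.44 in mARF10 minus Col-0 (adjusted p = 0.427) that was -0.24 without Col-0 replicate 2, its highest array. No sigma factor, protein associated with the plastid polymerase or nuclear plastid ribosomal protein of the lists was named on the array.

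Of 15 listed marker genes of seed reserves, 3 were named. None of the 3 passed in either comparison with Col-0 (limma), and 2 passed in mARF10 minus ARF10: the oil body gene OLEO3, with a difference of 1.09, and M17, a late embryogenesis abundant gene, with 3.84. The storage protein gene PAP85 had a difference of 3.34 (adjusted p = 0.0937). The mean of the 3 was at most 7.79 on the ARF10 arrays, and lay between 8.54 and 10.06 on the Col-0 arrays and between 9.88 and 10.67 on the mARF10 arrays. The root gene EXPA7 and the seed coat gene BAN, each the sole named gene of 4 listed, lay between 6.28 and 6.68 on all arrays, and the 6 flower and pollen genes were not named. The part of seed reserve state in the plastid differences was not tested.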

How the data were processed

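Germinating seeds were profiled on 9 arrays, 3 per genotype. The values used are the authors' deposited log2 signals. Base 2 was inferred from their range, and how probes were summarised and normalized is not stated in these sources. Array medians of 7.06 to 7.11 lay on a common scale, and the values were used as they were. Without scanner files, detection above background was not assessed, and the number of arrays limits the precision. Per the labels, the 3 replicates of a genotype are independent biological ones.

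Of 22810 probe sets, 64 controls were left out, and tests ran on the 15922 whose mean reached the 30th percentile. Limma 3.58.1 in R 4.3.3 fitted 1 mean per genotype over all 9 arrays, with eBayes, Benjamini-Hochberg adjustment over all tested probe sets and a threshold of 0.05; the procedure was tested on simulated data. Genes come from the platform annotation, with symbols updated through the TAIR10.1 gene table, which also gave the gene order. Members named include some with the smallest p in each comparison or the widest spread, and every member of a small class. Nuclear genes named are examples from their lists, not always those with the smallest p. Those of the photosynthetic complexes, PSAN and PSBW, had the largest differences of their list in ARF10 minus Col-0. The members and lists were chosen with earlier results of these data known. As alternatives, the filter, the scaling, the floor, the eBayes settings, the arrays in the fit, array weights and a replicate block were varied. Over all tested probe sets, the deviations of same-numbered replicates of Col-0 and ARF10 had correlations of 0.48, 0.49 and 0.19. Those of Col-0 and mARF10 had -0.17, 0.48 and 0.24, and those of ARF10 and mARF10 -0.08, 0.16 and 0.25. The highest correlation, 0.61, was between unlike numbers, Col-0 replicate 1 and mARF10 replicate 3. These values do not settle whether replicate numbers pair the arrays. No sequence is shown, as none was used here.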

Additional observations from a re-analysis of the deposited data

How the results depend on the processing

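With a threshold of 0.05 (limma), the count of organelle members that passed was 0 in each comparison and stayed at 0 under quantile normalization, median centring, other filters, a floor, and trended and robust eBayes. In mARF10 minus ARF10 it was 4 with array weights (ndhI, ndhA, clpP and psaI), 1 from the arrays of the 2 genotypes alone (ndhI) and 1 with the second arrays of Col-0 and mARF10 both left out (ndhA), an alternative chosen after the data were seen; with 1 array left out in turn it was 0 to 1, the 1 being ndhI without Col-0 replicate 1 or 2. In mARF10 minus Col-0 it was 2 with array weights (petL and psaJ) and 0 to 0 with 1 array left out, and in ARF10 minus Col-0 it was 0 throughout. Array weights came from the gene-by-gene estimator, as the default one did not converge. The replicate block left the counts at 0 and changed no call, also for ARF10 and Col-0 alone. Over all probe sets, mARF10 minus ARF10 called 65, and 1 to 268 with 1 array left out. It called 167 with both second arrays left out, 397 from the 2 genotypes alone and 784 with array weights. For mARF10 minus Col-0 the count was 0, and 0 to 14 with 1 array left out and 82 with array weights.

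The signs of some differences turned, and not all of these were near 0 in the main fit. Among those given next, the main values reached 0.16 for 244944_s_at and 0.14 for cox2 in ARF10 minus Col-0. In mARF10 minus Col-0 they reached 0.14 for ccmFC and 0.11 for cox2. With array weights, in mARF10 minus ARF10 AT2G07751 was at 0.017; in mARF10 minus Col-0 244906_at was at -0.039, cox2 at -0.13 and AT2G07708 at -0.19; and in ARF10 minus Col-0 244944_s_at was at -0.023 and cox2 at -0.13. With both second arrays left out, cox2 was at -0.000234 in ARF10 minus Col-0. With 1 array left out in turn, the ranges in mARF10 minus Col-0 were -0.094 to 0.22 for AT2G07708, -0.037 to 0.36 for cox2, -0.12 to 0.10 for nad4, -0.17 to 0.11 for nad4L and -0.017 to 0.28 for ccmFC. In mARF10 minus ARF10 they were -0.072 to 0.048 for AT2G07751, -0.072 to 0.024 for AT2G07776 and -0.12 to 0.012 for ccmFN2, and in ARF10 minus Col-0 -0.030 to 0.31 for 244944_s_at and -0.000234 to 0.39 for cox2. The cause of these turns was not tested. The plastid count of positive differences in mARF10 minus ARF10 ran from 48 to 60 of 73, and in ARF10 minus Col-0 from 35 to 52.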

Other observations

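Outside the run of identifiers, the annotation places 4 more plastid genes, which were not among the 126 members. The signal of psbA, for the D1 reaction centre protein of photosystem II, was 7.28, 6.95 and 7.60 in Col-0, 7.28, 7.26 and 7.45 in ARF10, and 7.58, 7.18 and 7.58 in mARF10, with the second arrays of Col-0 and mARF10 the lowest of the 9. The signal of matK, for the plastid's intron maturase, was 10.34, 10.40 and 11.11 in Col-0, 10.37, 10.82 and 10.70 in ARF10, and 10.85, 10.83 and 11.16 in mARF10. For rps16, a ribosomal protein, it was 5.80, 5.65 and 5.62 in Col-0, 5.87, 6.03 and 5.78 in ARF10, and 5.87, 6.05 and 6.26 in mARF10, so that the mARF10 arrays lay above the Col-0 arrays. For psbK, a small subunit of photosystem II, it was 11.06, 10.44 and 11.00 in Col-0, 11.43, 11.29 and 10.94 in ARF10, and 11.26, 10.97 and 11.32 in mARF10, with Col-0 replicate 2 the lowest. Among the unnamed members, 244979_at and 244981_at had their highest signal on Col-0 replicate 2, at 12.86 and 10.67, against 12.44 to 12.70 and 9.89 to 10.58 on the other 8 arrays.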
